A study of Mus musculus with 6 samples.

Results

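Long intergenic noncoding RNAs (lincRNAs) with measurable expression in mouse liver were chosen by annotation and abundance. A gene was selected when the GENCODE M21 annotation types it as lincRNA and when its raw counts over the 6 libraries summed to at least 300. Of 55471 genes counted, 5617 carried this type, 1588 of them had at least 1 count, and 128 met the threshold. The summed count was the value that chose them, and the fasting group did not enter it. The 128 lincRNAs held 90.4% of all lincRNA counts, and 0.247% to 0.333% of the gene counts of a library. Gm34777 with a summed count of 313 and B230217O12Rik with 303 stood just inside the threshold, and 4930516B21Rik with 286 and Gm49602 with 284 just outside it.

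The livers came from 6 male wild-type (WT) mice of the inbred strain C57BL/6J, 3 fasted for 16 h and 3 fasted for 4 h. The labels name no further allele or agent, and they give no ages. Each library is 1 mouse per the design text, so n = 3 in each group, and total RNA of liver was sequenced. Whether transcripts without a poly(A) tail were retained is not given in the sources used here.

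A lincRNA is transcribed from its own gene between coding genes, is usually capped and spliced like an mRNA, and is not known to be translated. Some lincRNAs belong to nuclear bodies, where Neat1 builds paraspeckles and Malat1 is found in nuclear speckles. Some act in X-chromosome inactivation (Xist, with Jpx and Ftx beside it), and others are hosts from which snoRNAs or miRNAs are cut. Most annotated lincRNAs have no known role. In liver, fasting is a classical setting in which transcription of metabolic genes changes, and a few lincRNAs of hepatocytes have been tied to lipid and bile acid metabolism in mice.

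Counts assigned to genes lay between 15173653 and 26572532 per library. Hepatocyte markers summed to between 77754 and 89399 CPM (the count scaled by library size, with TMM factors) in the 16 h libraries and between 89644 and 93660 CPM in the 4 h libraries, and 2 of the 6 passed as lower. Replicate 3 of the 4 h fast stood apart, with 189 CPM summed over 9 lung markers against 5.86 to 8.86 CPM in the other 5 libraries, and with 17.2 CPM of neutrophil markers against 2.36 to 5.36 CPM. Erythroid markers summed to between 51.6 and 93.0 CPM in the 16 h libraries and between 142 and 165.4 CPM in the 4 h libraries, and 1 of the 3 passed the test as lower. Stellate markers (1 of 5 lower) summed to 117 to 171 CPM at 16 h and 126 to 184 CPM at 4 h, and cholangiocyte markers to 23.7 to 32.7 CPM at 16 h and 32.2 to 46.9 CPM at 4 h. Of these 4, 0 passed in edgeR (1 at an unadjusted p under 0.05, and 0 in DESeq2). In bulk tissue, fewer cells of a type and less RNA per cell cannot be told apart, and the part of these markers in the results below was not tested.

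After the longer fast more of the 128 lincRNAs fell than rose. With edgeR's quasi-likelihood test and Benjamini-Hochberg adjustment over all genes tested, 10 rose (7.81%), 23 fell (17.97%) and 95 did not pass. Among all 13812 genes tested 18.7% passed, 9.18% as higher and 9.51% as lower, so the share that rose lay below the background and the share that fell above it. Of the 3253 genes whose mean level lay in the middle range of the lincRNAs (3.66 to 14.2 CPM), 6.42% were higher and 9.65% lower. The median log2 fold change over the 128, 16 h over 4 h, was -0.11, against -0.03 over all genes tested. All 128 were tested, and 127 lay above the filter level of 0.482 CPM in every library. The exception was Gm38416, which passed the filter through its 4 h libraries.

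More of the 33 called changes stayed below a log2 fold change of 1 in size than reached it. In 59 of the 128 lincRNAs (46.1%) the groups did not overlap, with all 16 h livers higher in 19 and all 16 h livers lower in 40. Over all genes tested this share was 39.4%, with 19.7% above and 19.7% below. Every one of the 33 called lincRNAs was among the 59, and the other 26 did not pass the test. At least a log2 fold change of 1 was reached by 3 of the rises and 11 of the falls. No share over all genes tested is given for this size, so the 2 counts describe these lincRNAs only. Over all 318 lincRNA genes tested, which include less abundant ones, 23 were higher (7.23%) and 34 lower (10.7%). These shares are nearer to the 9.18% and 9.51% of all genes tested than the share of falls among the 128.

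**Figure D1:**
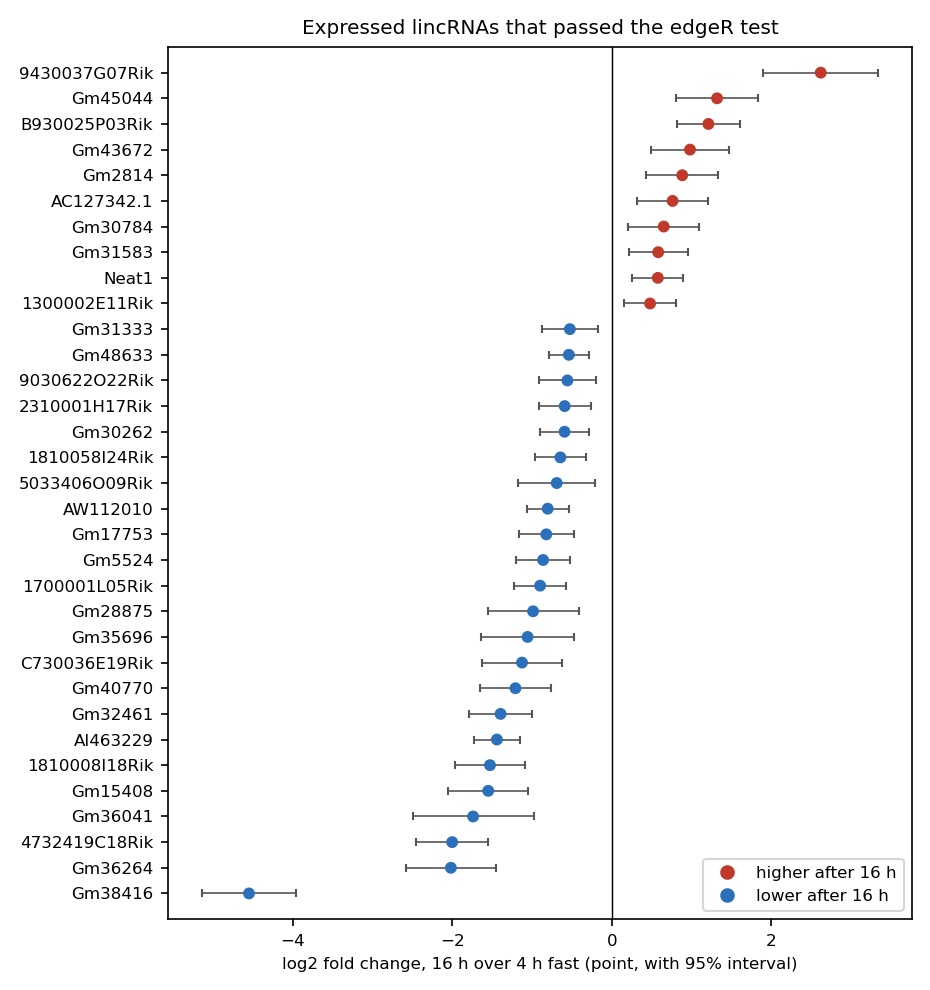
Log2 fold change, 16 h over 4 h fast, of the 33 expressed lincRNAs that passed the edgeR test, as points with 95% intervals. The 10 rises (red) run up to 2.62 for 9430037G07Rik and the 23 falls (blue) down to -4.55 for Gm38416.

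**Figure D2:**
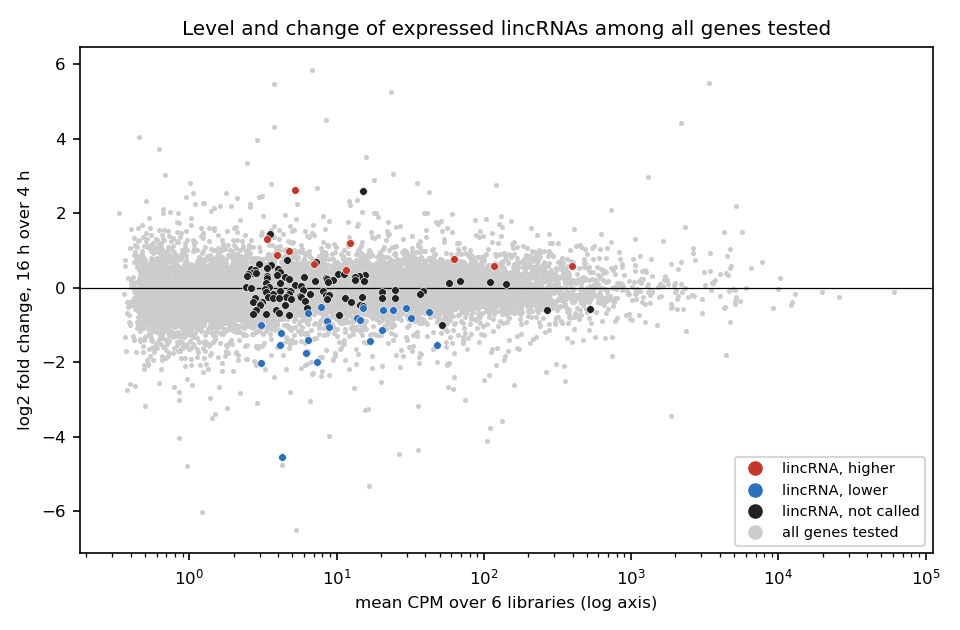
Mean level over the 6 libraries (CPM, log axis) against log2 fold change, 16 h over 4 h, with all 13812 genes tested in grey and the 128 expressed lincRNAs as coloured or black points. The called lincRNAs, higher in red and lower in blue, spread over the levels of the lincRNAs, and Neat1 is the most abundant of them in CPM.

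A group of lincRNAs downstream of Irs2 rose together. Irs2 encodes insulin receptor substrate 2, which passes the insulin signal on inside the hepatocyte, and it lies on the minus strand of chromosome 8. B930025P03Rik (ENSMUSG00000109473, chr8:10870422-10882454, minus strand, GRCm38) begins beyond its end, with 102227 bases between the gene bodies, and no function is known for it. Its level was 19, 19.5 and 13.1 CPM in the 16 h livers, against 8.53, 7.48 and 6.16 CPM in the 4 h livers. The lowest 16 h liver was above the highest 4 h liver. The change was 1.21 ± 0.18 (log2 fold change ± SE, edgeR adjusted p = 0.00109).

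The RefSeq promoter window of B930025P03Rik is shown as the start of the lincRNA of this group with the highest CPM. Per kb of exon Gm45044 is higher, with a mean of 8.53 against 3.98 CPM per kb over the 6 libraries. It runs from 250 bases before to 50 bases after the start (chr8:10882405-10882704, minus strand, GRCm38.p6), and the capitals mark AGAACA, a hexamer of the kind bound by the glucocorticoid receptor, here downstream of the start.
B930025P03Rik: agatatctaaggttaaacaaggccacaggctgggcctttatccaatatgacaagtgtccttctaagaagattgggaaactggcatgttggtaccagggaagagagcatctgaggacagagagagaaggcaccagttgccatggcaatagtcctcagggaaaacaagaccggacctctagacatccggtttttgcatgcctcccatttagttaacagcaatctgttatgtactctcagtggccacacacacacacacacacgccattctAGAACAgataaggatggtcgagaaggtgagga

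Gm45044 (ENSMUSG00000108969), which lies between B930025P03Rik and Irs2 on the same strand, had 5.03, 5.78 and 3.66 CPM in the 16 h livers and 1.88, 2.19 and 1.72 CPM in the 4 h livers. Again no 4 h liver reached the 16 h range, and the change was 1.32 ± 0.23 (edgeR adjusted p = 0.00288). Gm2814 (ENSMUSG00000109291), 84123 bases from Irs2, had 5.87, 5.06 and 4.49 CPM in the 16 h livers and 3.13, 2.9 and 2.3 CPM in the 4 h livers, a change of 0.88 ± 0.21 (edgeR adjusted p = 0.0125). The groups did not overlap, and Gm2814 missed the threshold when 16 h replicate 1 was left out (adjusted p = 0.0562). Of its exon bases 12.8% lie under 4833411C07Rik, a noncoding gene on the other strand. Without a stated strand setting, it is not known whether reads there were counted or set aside.

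A further selected lincRNA at this place did not pass. Gm32540, the farthest from Irs2 at 118495 bases, had 4.49, 3.31 and 1.89 CPM in the 16 h livers and 3.13, 4.19 and 2.66 CPM in the 4 h livers, which overlap (-0.04 ± 0.30, edgeR adjusted p = 0.953). Nearer to Irs2 than any of the 4, 3930402G23Rik had a summed count of 246, just too few to be selected, and rose by 2.19 ± 0.41 (edgeR adjusted p = 0.00412). 4833411C07Rik rose by 0.79 ± 0.14 (edgeR adjusted p = 0.00305). Between the end of Irs2 and 3930402G23Rik, 2 further lincRNA genes on the same strand, Gm44956 and Gm44955, had 3 and 2 counts over all 6 libraries.

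Irs2 itself had 43.6, 23.6 and 34.4 CPM in the 16 h livers and 19.9, 24.7 and 16.1 CPM in the 4 h livers. Its groups overlap through replicate 2 of each, and it passed narrowly (0.75 ± 0.22, edgeR adjusted p = 0.0433). It missed the threshold when any one of 4 libraries was left out, with an adjusted p of 0.122 for 16 h replicate 1, 0.108 for 16 h replicate 3, 0.0986 for 4 h replicate 1 and 0.222 for 4 h replicate 3, while B930025P03Rik and Gm45044 passed in all 6 fits that leave out a library.

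**Figure D3:**
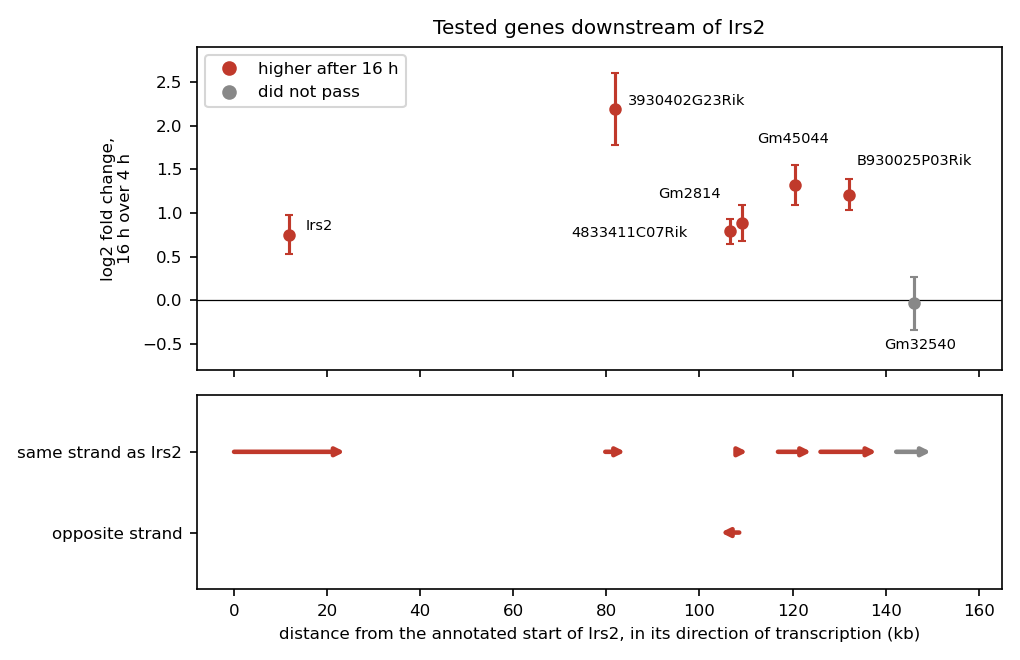
Upper panel: log2 fold change ± SE, 16 h over 4 h, of Irs2 and the tested genes downstream of it, against distance from the annotated start of Irs2 in kb. Lower panel: the extent and direction of each gene, on the strand of Irs2 or the opposite one. Red genes passed the edgeR test as higher, from Irs2 at 0.75 to 3930402G23Rik at 2.19, and Gm32540 in grey did not pass (-0.04).

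The steepest rise belonged to 9430037G07Rik (ENSMUSG00000097073, chr9:88595325-88599516, minus strand), a lincRNA that holds the snoRNA gene Gm23017. It had 8.41, 11.3 and 7.12 CPM in the 16 h livers, against 1.40, 2.32 and 0.731 CPM in the 4 h livers. The groups are far apart, and the change was 2.62 ± 0.33 (edgeR adjusted p = 0.000448), with a call in all 6 fits that leave out a library. Its nearest coding gene, Trim43a at 6506 bases, was too low to be tested. No other of the 5 snoRNA hosts among the lincRNAs passed: Snhg12 changed by 0.22 ± 0.18, Epb41l4aos by 0.29 ± 0.19, Snhg6 by -0.07 ± 0.20 and Gm32624 by -0.38 ± 0.22. Of 11 tested snoRNA host genes outside the selection 1 passed (9.09%). This was Snhg11, which M21 types as protein-coding and which fell by 1.05 ± 0.15 on the log2 scale (edgeR adjusted p = 0.000647).

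Neat1 (ENSMUSG00000092274, chr19:5824708-5845478, minus strand), the scaffold RNA of paraspeckles, was the most abundant lincRNA in CPM to pass. Its level was 583, 423 and 425 CPM in the 16 h livers and 282, 339 and 339 CPM in the 4 h livers, so that every 16 h liver was higher. The change was 0.58 ± 0.15 (edgeR adjusted p = 0.0184), and Neat1 missed the threshold with replicate 1 of either group left out (adjusted p = 0.0773 for that of 16 h and 0.057 for that of 4 h). Of 16 paraspeckle proteins tested 2 were higher and 1 lower (18.8% called, beside 18.7% of all genes). Pspc1, a core paraspeckle protein, rose by 0.97 ± 0.19 and the cold-inducible RNA-binding protein Cirbp by 0.58 ± 0.13, while Dazap1 fell by 0.53 on the log2 scale (SE 0.11). Frmd8, the coding gene nearest to Neat1, 4224 bases away, changed by -0.13 and did not pass (adjusted p = 0.51). 

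Each of the remaining rises missed the threshold with some library left out. Gm43672 (chr3), which starts 510 bases from Tbl1xr1, a nuclear receptor cofactor, in divergent arrangement, had 4.67, 6.21 and 7.99 CPM in the 16 h livers and 3.60, 3.09 and 2.82 CPM in the 4 h livers. The change was 0.98 ± 0.22 (edgeR adjusted p = 0.0117), against -0.06 for Tbl1xr1, and leaving out 16 h replicate 3 ended the call (adjusted p = 0.0695). Gm31583, upstream of the repressor gene Bcl6 by 96231 bases, had 151, 158 and 112 CPM in the 16 h livers and 107, 101 and 73.0 CPM in the 4 h livers (0.58 ± 0.17, edgeR adjusted p = 0.0338). Its lowest 16 h liver was only just above the highest 4 h liver, and the call ended on leaving out 16 h replicate 1 (adjusted p = 0.104), 16 h replicate 2 (0.134) or 4 h replicate 3 (0.0523). Bcl6 changed by -0.74 ± 0.37 and did not pass (edgeR adjusted p = 0.227).

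**Figure D4:**
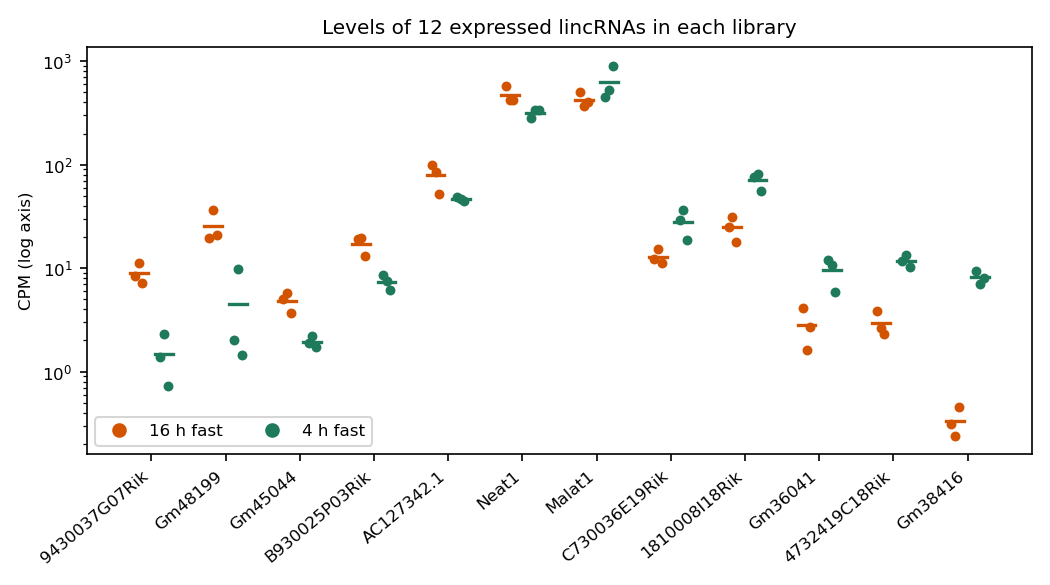
Level of 12 expressed lincRNAs in each library (CPM, log axis), with the 16 h livers (orange) left of the 4 h livers (green) and a bar at each group mean. The 16 h points of 9430037G07Rik, Gm45044 and B930025P03Rik lie above all 4 h points, those of C730036E19Rik, 1810008I18Rik, Gm36041, 4732419C18Rik and Gm38416 below them, and those of Malat1 overlap.

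Gm38416 (ENSMUSG00000110151, chr8:117681622-117693198, plus strand) fell furthest. It had 7, 4 and 11 raw counts in the 16 h livers and 257, 109 and 153 in the 4 h livers, which is 0.311, 0.241 and 0.453 CPM against 9.45, 7.02 and 7.99 CPM. Even the highest 16 h liver was far below the lowest 4 h liver. The change was -4.55 ± 0.27 (edgeR adjusted p = 6.11e-06), a level 23.4-fold lower. Its size rests on few counts in the 16 h livers, and Gm38416 entered the test through its 4 h libraries alone. The nearest coding gene, the short-chain dehydrogenase Sdr42e1 at 7933 bases and in divergent arrangement, had a change of 0.05 (edgeR adjusted p = 0.817).

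The promoter windows of Gm38416 and 1810008I18Rik are printed as those of the steepest fall and of the most abundant of the 10 largest falls. They span chr8:117681372-117681671 and chr7:65802787-65803086, both on the plus strand (RefSeq, GRCm38.p6). Capitals mark AGGTCA, the hexamer read by nuclear receptors, and the E-box CACGTG. None of the 7 motifs searched occurs in the window of Gm38416.
Gm38416: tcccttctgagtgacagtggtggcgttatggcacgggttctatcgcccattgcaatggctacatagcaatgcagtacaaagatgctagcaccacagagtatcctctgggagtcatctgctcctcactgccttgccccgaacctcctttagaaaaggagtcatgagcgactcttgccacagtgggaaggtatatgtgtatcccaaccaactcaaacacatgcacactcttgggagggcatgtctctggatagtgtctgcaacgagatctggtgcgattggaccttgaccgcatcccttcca
1810008I18Rik: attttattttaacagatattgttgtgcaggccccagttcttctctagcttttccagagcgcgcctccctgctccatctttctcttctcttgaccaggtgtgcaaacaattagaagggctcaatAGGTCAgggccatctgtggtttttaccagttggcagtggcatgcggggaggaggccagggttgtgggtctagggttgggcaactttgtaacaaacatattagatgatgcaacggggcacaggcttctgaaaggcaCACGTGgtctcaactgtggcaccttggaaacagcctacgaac

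1810008I18Rik (ENSMUSG00000100094), a lincRNA of unknown function, had 25.3, 31.0 and 18.1 CPM in the 16 h livers and 76.8, 80.6 and 56.0 CPM in the 4 h livers. All 16 h livers were lower, with a change of -1.53 ± 0.20 (edgeR adjusted p = 0.0008). Pcsk6, a proprotein convertase and the nearest coding gene at 55285 bases, changed by 0.30 (edgeR adjusted p = 0.0672). AI463229 (chr13, 110666 bases from the transcription factor gene Rreb1) had 9.56, 9.22 and 8.52 CPM in the 16 h livers and 23.6, 22.3 and 28.1 CPM in the 4 h livers. It had the second smallest adjusted p of the lincRNAs, 4.93e-05 in edgeR, with a change of -1.44 ± 0.13, while Rreb1 did not pass (-0.00).

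C730036E19Rik (ENSMUSG00000102095, chr1:151138034-151142345, plus strand) carries lncLSTR among its RefSeq synonyms. Under that name it is known as a liver-enriched lncRNA whose knockdown in mice lowered plasma triglycerides. Its level was 12.1, 15.4 and 11.1 CPM in the 16 h livers and 29.2, 36.2 and 18.8 CPM in the 4 h livers. The lowest 4 h liver was replicate 3, still above every 16 h liver, and the change was -1.13 ± 0.22 (edgeR adjusted p = 0.0071). The call held in all 6 fits that leave out a library.

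The other large falls ranged from -1.21 for Gm40770 to -2.02 for Gm36264, and all passed in the 6 fits that leave out a library. Gm36264 had 1.11, 1.33 and 1.19 CPM in the 16 h livers and 3.57, 5.86 and 5.38 CPM in the 4 h livers. 4732419C18Rik had 3.87, 2.65 and 2.31 CPM in the 16 h livers and 11.8, 13.4 and 10.3 CPM in the 4 h livers, a change of -2.0 ± 0.21. All of its exon bases lie within the body of Gm20388, a coding gene on the other strand. Gm36041, 13466 bases from the vasopressin receptor gene Avpr1a, had 4.09, 1.63 and 2.72 CPM in the 16 h livers and 12, 10.8 and 5.85 CPM in the 4 h livers (-1.74 ± 0.34). Gm15408 changed by -1.55 ± 0.23 and Gm32461 by -1.39 ± 0.18. Gm32461 had a mean of 3.55 ± 0.112 CPM in the 16 h livers (SD, n = 3), against 9.34 ± 1.78 CPM in the 4 h livers. None of the nearest coding genes of these lincRNAs that was tested passed.

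Among the smaller falls were lincRNAs with a known or annotated product. AW112010 (chr19), whose transcript holds a short noncanonical reading frame that mouse macrophages translate, had 25.4, 22.3 and 22.2 CPM in the 16 h livers and 35.5, 41.6 and 45.1 CPM in the 4 h livers. The groups did not overlap, and the change was -0.80 ± 0.12 (edgeR adjusted p = 0.00112). Kupffer cell markers, the resident macrophages of liver, summed to between 89.6 and 108 CPM in the 16 h livers and between 96.1 and 176 CPM in the 4 h livers, and 0 of the 6 passed in edgeR (2 at an unadjusted p under 0.05, and 2 in DESeq2). 1810058I24Rik had 31.3, 34.9 and 33.7 CPM in the 16 h livers and 44.5, 46.6 and 65.0 CPM in the 4 h livers (-0.64 ± 0.14, edgeR adjusted p = 0.0102). RefSeq types this gene as protein-coding. Leaving out 16 h replicate 1 ended its call (adjusted p = 0.0509). RefSeq matched 95 of the 128 by symbol or synonym, and it types 87 of them as lncRNA, 6 as protein-coding and 2 as pseudogenes.

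Of the 12 lincRNAs with a known role 1 passed (8.33%, beside 18.7% of all genes), which is Neat1, and the median log2 fold change of the 12 was 0.07. Malat1 was the most abundant lincRNA in mean CPM over the 6 libraries, though below Neat1 in each 16 h liver. It had 510, 369 and 403 CPM in the 16 h livers and 455, 527 and 911 CPM in the 4 h livers. The high value is replicate 3 of the 4 h fast, the library with the lung markers, and the groups overlap (-0.56 ± 0.25, edgeR adjusted p = 0.148). Without that library the change was -0.19, and with all 6 libraries and no filter on low counts Malat1 passed (-0.53, edgeR adjusted p = 0.00119). 2900097C17Rik, which is Norad, a decoy of Pumilio proteins, had 109, 127 and 109 CPM in the 16 h livers and 107, 108 and 96.9 CPM in the 4 h livers. Its change of 0.14 ± 0.11 did not pass (edgeR adjusted p = 0.384), and neither did that of 1700020I14Rik, which is Cyrano, a regulator of the miRNA miR-7 (0.19 ± 0.12, edgeR adjusted p = 0.298).

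Xist, which coats the inactive X chromosome in female cells, was low in these male livers. It had 2.09, 2.11 and 3.75 CPM in the 16 h livers and 2.46, 2.96 and 2.61 CPM in the 4 h livers. Its change was 0.00 ± 0.27 (edgeR adjusted p = 0.994), and its sign turned under several settings. The groups of Jpx overlap as well (-0.17 ± 0.18, edgeR adjusted p = 0.54), and Ftx had a change of 0.31 ± 0.20 with no overlap and no call (edgeR adjusted p = 0.298). Meg3, an imprinted lincRNA, had 3.25, 2.35 and 3.58 CPM in the 16 h livers and 2.17, 3.74 and 8.36 CPM in the 4 h livers. Its change of -0.61 ± 0.44 became 0.12 without 4 h replicate 3. Snhg20 had 6.98, 8.98 and 7.62 CPM in the 16 h livers and 9.97, 9.09 and 19.8 CPM in the 4 h livers (-0.73 ± 0.28, edgeR adjusted p = 0.101), again with its high value in that library. It passed with 4 h replicate 2 left out (adjusted p = 0.0433) and without a filter on low counts (0.000689), and its change was -0.28 with 4 h replicate 3 left out.

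Of the 8 lincRNAs that host miRNAs 0 passed in edgeR (beside 18.7% of all genes), with 2 at an unadjusted p under 0.05, and 1 passed in DESeq2 (Snhg20, adjusted p = 0.0486). Mir17hg, the primary transcript of the miR-17 to miR-92a cluster, had 5.12, 4.76 and 4.2 CPM in the 16 h livers and 3.27, 3.80 and 2.82 CPM in the 4 h livers. Each 16 h liver was above every 4 h liver, but the change of 0.51 ± 0.20 did not pass (edgeR adjusted p = 0.0922). 6720427I07Rik, the host of 3 let-7 genes, had 5.07, 4.34 and 4.82 CPM in the 16 h livers and 4.23, 4.64 and 6.37 CPM in the 4 h livers (-0.09 ± 0.20, edgeR adjusted p = 0.785). These values count the host transcript and say nothing of the mature miRNAs.

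Mature miRNAs of these hosts, 1 arm of each, are shown because the products of one transcript fall into seed families (RefSeq, GRCm38.p6). Capitals mark the seed, bases 2 to 8. The arms shown of Mir17hg share the seeds AAAGUGC (miR-17 and miR-20a) and GUGCAAA (miR-19a and miR-19b), with miR-18a and miR-92a alone, and the 5p arms of the let-7 miRNAs of 6720427I07Rik all have GAGGUAG. The other arms are not printed.
mmu-miR-17-5p: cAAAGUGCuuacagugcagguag
mmu-miR-20a-5p: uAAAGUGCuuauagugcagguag
mmu-miR-18a-5p: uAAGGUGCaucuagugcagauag
mmu-miR-19a-3p: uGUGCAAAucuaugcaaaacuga
mmu-miR-19b-3p: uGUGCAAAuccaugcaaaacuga
mmu-miR-92a-3p: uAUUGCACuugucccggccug
mmu-let-7a-5p: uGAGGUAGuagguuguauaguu
mmu-let-7d-5p: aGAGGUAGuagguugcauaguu
mmu-let-7f-5p: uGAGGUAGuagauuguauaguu

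Per length, lincRNAs were less abundant than coding genes of the same minimum count. Over the 6 libraries the median lincRNA had 2.86 CPM per kb of exon, with a range of 0.148 to 80.7, against a median of 4.58 for coding genes with a summed count of at least 300. Gm26917, a locus of ribosomal RNA origin, stood first over all 6 libraries, with 63.9 ± 5.01 CPM per kb in the 16 h livers and 97.5 ± 45.9 CPM per kb in the 4 h livers (SD, n = 3). Malat1 followed with 61.2 ± 10.5 CPM per kb in the 16 h livers and 90.4 ± 35.1 CPM per kb in the 4 h livers. The 16 h libraries of Gm26917 had 203 to 232 CPM, and its high value of 500 CPM came from 4 h replicate 3. In the 16 h livers alone AC117816.1 was slightly above both, within their spread. Gm26917 did not pass (-0.61 ± 0.30, edgeR adjusted p = 0.2), but passed with 4 h replicate 1 left out (adjusted p = 0.0487) and without a filter on low counts (adjusted p = 0.0229). AC117816.1, next to the RNA-editing cofactor gene A1cf, had 64.6 ± 3.05 CPM per kb in the 16 h livers and 59.8 ± 9.24 CPM per kb in the 4 h livers, a change of 0.11 ± 0.13 (edgeR adjusted p = 0.564). A1cf changed by 0.84 ± 0.40, with all 16 h livers above all 4 h livers, and did not pass (edgeR adjusted p = 0.213).

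Gm48199 showed a large but uneven difference. It had 19.7, 36.4 and 21.1 CPM in the 16 h livers and 2.02, 9.92 and 1.46 CPM in the 4 h livers. The groups do not overlap, but replicate 2 of the 4 h fast lies well above the other two of its group. The change of 2.60 ± 0.79 did not pass (edgeR adjusted p = 0.0922), and without that library it was 3.87 and passed (edgeR adjusted p = 0.000356). With all 6 libraries it passed in DESeq2 (adjusted p = 0.0225) and in the non-robust edgeR fit (0.00902). Gm10076, a short single-exon lincRNA, had overlapping groups and a change of -0.48 ± 0.26 (edgeR adjusted p = 0.229, and 0.0276 without a filter on low counts).

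In 7 pairs both a lincRNA and its nearest coding gene passed, 6 of them in the same direction. These are 7 of the 33 called lincRNAs, some of which have an untested neighbour, beside 18.7% called over all genes tested. The 128 lincRNAs have 118 coding neighbours by distance between gene bodies, and the neighbour was tested for 98. Of the 118 coding neighbours, each counted once and some of them untested, 24 passed, and over all genes tested 18.7% did. Besides the 3 lincRNAs downstream of Irs2, the pairs of 1 direction were AC127342.1 with Eif1a, Gm30784 with Slco1a4 and Gm30262 with Phlda1. The last fell and the others rose. None of the 7 pairs is within 10000 bases, and the Irs2 neighbour is counted 3 times. With each coding gene counted once, the 6 pairs of the same direction become 4. Over all 98 pairs the signs matched in 51 (52.0%), and the correlation of the log2 fold changes was 0.23 (Spearman's rho) and 0.16 (Pearson's r). It is given as a description, since the pairs share libraries and some share a neighbour.

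By arrangement, the correlation was highest for lincRNAs that lie downstream of the coding gene on its strand. There the signs matched in 18 of 26 tested pairs, with a rho of 0.67 and an r of 0.61. Without the 4 pairs of Irs2, rho was 0.56 and r was 0.49 over 22 pairs. In divergent pairs, which start away from each other, the signs matched in 18 of 33 with a rho of 0.28, and in lincRNAs upstream on the same strand in 9 of 23 with a rho of -0.03. The difference between arrangements was not tested. In the 54 tested pairs within 10000 bases the signs matched in 28, and in none of them did both genes pass in edgeR or in DESeq2 (4 pairs at an unadjusted p under 0.05 in edgeR).

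**Figure D5:**
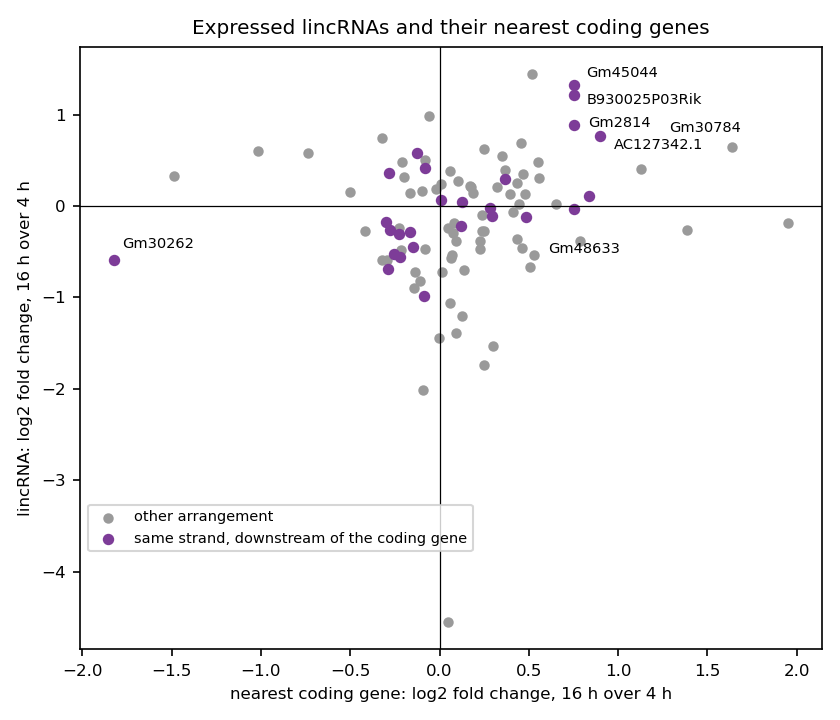
Log2 fold change, 16 h over 4 h, of 98 expressed lincRNAs (vertical) against that of the nearest coding gene (horizontal), with lincRNAs downstream on the same strand in purple and other arrangements in grey. Labels mark the 7 pairs in which both passed the edgeR test; Gm48633 is the pair of opposite direction, and Gm38416 at -4.55 is the lowest point.

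AC127342.1 and Eif1a lie on chromosome 18, 14351 bases apart on the same strand, and Eif1a encodes a translation initiation factor. AC127342.1 had 100.004, 84.7 and 52.3 CPM in the 16 h livers and 48.6, 47.0 and 44.2 CPM in the 4 h livers. Every 16 h liver was higher, replicate 3 by little, and the change was 0.76 ± 0.20 (edgeR adjusted p = 0.0259). Eif1a rose by 0.90 ± 0.13 (edgeR adjusted p = 0.000798). AC127342.1 missed the threshold when 16 h replicate 1 (adjusted p = 0.0728) or 2 (0.0796) or any one of the 4 h libraries was left out (0.0523, 0.0805 and 0.211). AC157910.3, on the same chromosome and the host of miR-122, the dominant miRNA of hepatocytes, had 34.6, 33.4 and 44.3 CPM in the 16 h livers and 19.6, 22.2 and 78.4 CPM in the 4 h livers. Its change of -0.09 ± 0.62 did not pass (edgeR adjusted p = 0.938), and without 4 h replicate 3 it was 0.86 and passed (edgeR adjusted p = 0.001).

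Gm30784 rose by 0.65 ± 0.20 (edgeR adjusted p = 0.0452) beside Slco1a4, an organic anion transporter of hepatocytes, which rose by 1.64 ± 0.33 (edgeR adjusted p = 0.0184). Slco1a4 missed the threshold with 4 h replicate 3 left out (adjusted p = 0.145) and without a filter on low counts (0.0693). The lincRNA had 7.70, 9.10 and 8.81 CPM in the 16 h livers and 4.63, 7.41 and 4.44 CPM in the 4 h livers. Replicate 2 of the 4 h fast came close to the 16 h livers. Its call held without 4 h replicate 2 alone and was lost without each other library, with edgeR adjusted p between 0.0717 and 0.141. Gm30262 had 18.4, 19 and 19.8 CPM in the 16 h livers and 22.7, 32.3 and 31.6 CPM in the 4 h livers (-0.59 ± 0.14, edgeR adjusted p = 0.0143). Phlda1, 90532 bases away, changed by -1.82 ± 0.37 (edgeR adjusted p = 0.0201). With 16 h replicate 1, 2 or 3 left out, the adjusted p of Gm30262 was 0.0642, 0.0621 and 0.0514 and that of Phlda1 0.0558, 0.055 and 0.0753, and Phlda1 also missed the threshold with 4 h replicate 2 left out (0.0628).

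Gm48633 and Apob moved in opposite directions. Apob encodes apolipoprotein B, the structural protein of very-low-density lipoprotein, and starts 27587 bases away in divergent arrangement. Gm48633 had 25.8, 23.4 and 23.4 CPM in the 16 h livers and 31.3, 37.2 and 37.1 CPM in the 4 h livers, with no overlap (-0.54 ± 0.11, edgeR adjusted p = 0.00744). Apob rose by 0.53 ± 0.13 (edgeR adjusted p = 0.0167), and missed the threshold when 16 h replicate 1 (adjusted p = 0.0509) or 2 (0.0766) was left out. 9030622O22Rik, 2674 bases downstream of the liver transcription factor gene Foxa2, had 14.1, 12.3 and 10.2 CPM in the 16 h livers and 14.6, 19.98 and 19.5 CPM in the 4 h livers (-0.56 ± 0.16, edgeR adjusted p = 0.035). Its call was lost with replicate 2 or 3 of either group left out. The edgeR adjusted p was 0.108 and 0.152 for those of 16 h and 0.0956 and 0.0704 for those of 4 h. Foxa2 changed by -0.22 and did not pass (edgeR adjusted p = 0.378).

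Promoter letters were read for 49 of the 128 lincRNAs, those whose RefSeq start lies within 100 bases of the M21 start. On either strand, the E-box CACGTG occurred in 8 of the 49 windows (16.3%), against 7.24% of all 27025 RefSeq promoters of the same length. AGGTCA occurred in 18.4% against 16.0%, AGAACA in 18.4% against 19.02%, and TATAAA in 18.4% against 14.2%. The cyclic AMP response element TGACGTCA was found in 2 windows (4.08% against 1.88%), the FOXO motif TGTTTAC in 0 (against 3.55%), and DR1, a pair of AGGTCA hexamers 1 base apart, in 0 (against 12 of the 27025 windows). The E-box was in 3 of 11 windows of lincRNAs that fell, 0 of 4 of those that rose and 5 of 34 of those that did not pass. These matches describe letters in a window only.

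The windows of 1700001L05Rik, which holds the E-box at 2 places, and of 1300002E11Rik, which holds the cyclic AMP response element, are shown with these motifs in capitals. They span chr15:83367248-83367547 on the minus strand and chr16:21794097-21794396 on the plus strand (RefSeq, GRCm38.p6).
1700001L05Rik: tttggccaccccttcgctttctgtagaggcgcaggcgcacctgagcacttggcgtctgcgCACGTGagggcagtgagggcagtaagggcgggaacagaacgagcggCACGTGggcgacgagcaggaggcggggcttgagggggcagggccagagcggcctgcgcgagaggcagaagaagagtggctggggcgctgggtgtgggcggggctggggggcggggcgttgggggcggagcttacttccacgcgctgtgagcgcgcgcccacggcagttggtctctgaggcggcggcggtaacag
1300002E11Rik: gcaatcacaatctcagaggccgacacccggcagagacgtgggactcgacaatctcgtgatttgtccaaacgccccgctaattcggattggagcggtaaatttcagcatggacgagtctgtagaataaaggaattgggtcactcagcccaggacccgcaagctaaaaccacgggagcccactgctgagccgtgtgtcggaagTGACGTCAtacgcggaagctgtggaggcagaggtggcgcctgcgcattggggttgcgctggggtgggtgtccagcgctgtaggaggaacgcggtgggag

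1700001L05Rik, 3600 bases from Arfgap3, had 6.05, 5.54 and 6.51 CPM in the 16 h livers and 11.2, 12.7 and 10.03 CPM in the 4 h livers. Its groups are clearly apart (-0.90 ± 0.15, edgeR adjusted p = 0.00198). 1300002E11Rik had 14.6, 14.2 and 11.5 CPM in the 16 h livers and 11.0, 9.15 and 8.62 CPM in the 4 h livers (0.48 ± 0.15, edgeR adjusted p = 0.0457). The lowest 16 h liver stood just above the highest 4 h liver, and the call was lost in all fits that leave out a library except that without 4 h replicate 1, with edgeR adjusted p up to 0.146. Of its exon bases 99.3% lie within the body of Map3k13, on the same strand, so that reads of unspliced Map3k13 RNA cannot be told apart from its own. Map3k13 changed by -0.21 ± 0.20 and did not pass (edgeR adjusted p = 0.488).

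Of the 33 calls, 18 held in all 6 fits that leave out a library, 3 rises and 15 falls. In those fits between 9.71% and 20.9% of all genes tested passed, beside 18.7% with all 6 libraries. The 3 rises are 9430037G07Rik, Gm45044 and B930025P03Rik. Among falls not described so far, Gm17753 (-0.82 ± 0.16), near the linker histone gene H1f0, and Gm5524 (-0.86 ± 0.15) passed in all 6 fits, and 32.2% of the exon bases of Gm5524 lie under another gene. Gm35696 (-1.06 ± 0.26) missed the threshold with 16 h replicate 1 or 3 left out (adjusted p = 0.0625 and 0.0834). Gm28875 (-0.99 ± 0.26) missed it with 16 h replicate 2 (0.0859) or 3 (0.103) or 4 h replicate 1 (0.0854) left out, and 2310001H17Rik (-0.59 ± 0.15) with 16 h replicate 1 (0.0833) or 3 (0.0915) or 4 h replicate 2 (0.052) left out. 5033406O09Rik (-0.69 ± 0.22) and Gm31333 (-0.53 ± 0.16) were near the threshold, and their highest edgeR adjusted p with a library left out were 0.156 and 0.172.

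Genes that turn over noncoding transcripts were listed beside the lincRNAs. Of 22 tested genes of nuclear RNA decay and nonsense-mediated decay, 19 did not pass (13.6% called, beside 18.7% of all genes). Smg5 rose by 0.46 ± 0.10, and Exosc8 fell by 0.53 on the log2 scale (SE 0.17).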

How the data were processed

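Total RNA had been sequenced from 3 livers fasted for 16 h and 3 fasted for 4 h. The values the authors deposited are raw counts per gene, for which the submitters' processing notes name Trimmomatic, STAR and HTSeq and the build GRCm38 (mm10). The sources used here give neither tool versions nor annotation release nor strand setting. The 5 summary lines of each table stayed out of library sizes, and reads hitting more than 1 gene made up 5.78% to 6.59% of a library's tally.

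Gene types and positions came from GENCODE M21, which holds 99.41% of the identifiers, and 8 unmatched identifiers had a summed count of 300 or more. Genes kept by filterByExpr (13812) entered edgeR 4.0.16 (R 4.3.3), with TMM factors, a robust quasi-likelihood fit on the fasting group, two-sided p-values and Benjamini-Hochberg adjustment over all of them (threshold 0.05). SE is the log2 fold change over the root of its F. The script was tested on simulated data. Overlaps of at least 15% of the exon bases with another gene were looked for. They are stated for some called lincRNAs and are not given for lincRNAs that did not pass. Sequences are from RefSeq (GRCm38.p6).

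A further called gene of the RNA decay list is not reported here. Members and lists were chosen with earlier results of these data known. Named were the 10 largest rises and falls among called members without overlap, the 8 most abundant per kb, known-role members, their nearest coding genes, the edges of the threshold, and the 2 genes of smallest adjusted p in each list. AC157910.3, 6720427I07Rik, Gm48633, Gm30262, 9030622O22Rik, 1810058I24Rik and the remaining called members were picked after their values were seen. Alternatives comprised other scaling factors (RLE, upper quartile), DESeq2 1.42.0, filters, a non-robust fit, a replicate block, each library left out, count minimums of 100 and 1000, and other definitions of the neighbour.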

Additional observations from a re-analysis of the deposited data

How the results depend on the processing

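No called lincRNA changed direction under any alternative, and 32 of the 33 calls were kept with DESeq2, 33 with RLE factors, 31 with upper-quartile factors and 31 in the non-robust fit. With each library left out in turn, 5 to 10 lincRNAs were higher (main 10) and 16 to 25 lower (main 23), 5 higher without 16 h replicate 1 and 6 without 16 h replicate 2. The median log2 fold change lay between -0.13 and -0.06. Of the 253 with a summed count of at least 100, 19 were higher (7.51%) and 33 lower (13.04%), and of the 52 with at least 1000, 5 were higher and 13 lower (25%), with a median of -0.18, since the set itself is then larger or smaller.

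The count of called lincRNAs whose nearest coding gene was called in the same direction (main 6) was 2 with upper-quartile factors, 0 within 10 kb, and 0 to 4 with a library left out. Under the first of these Irs2 missed the threshold (edgeR adjusted p = 0.0601). Slco1a4 and Phlda1 missed it without a filter on low counts (0.0693 and 0.118). That setting kept all 33 calls and added 7, Malat1, Gm26917, Gm10076 and Snhg20 among them. Changes of sign concerned lincRNAs that did not pass. Xist (0.00) was -0.046 with upper-quartile factors, and with a library left out lay between -0.34 (without 16 h replicate 3) and 0.17. On leaving out 4 h replicate 3, Snhg6 was 0.22 (lowest -0.18 with another library left out), Meg3 0.12 (lowest -0.96), 6720427I07Rik 0.12 (lowest -0.20) and AC157910.3 0.86 (lowest -0.41). The cause was not tested.

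Groups share replicate numbers, but same-numbered libraries deviated together only weakly (correlations of 0.088, 0.093 and 0.045, all under 0.1), so the numbers were not taken to pair the livers. With the replicate block 11 lincRNAs were higher and 23 lower, 31 of the 33 calls were kept, 3 had a neighbour called in the same direction, Irs2 missed the threshold (edgeR adjusted p = 0.0769), Gm48199 passed (2.85, edgeR adjusted p = 0.00885), and Xist was -0.042 and AC157910.3 0.18. Not every library correlated best with its own number.

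The median over all genes was -0.03 with TMM factors, -0.02 with RLE and -0.08 with upper-quartile factors. With 3 livers per group, small changes of lincRNAs with few counts could not be resolved. The annotation release behind the counts is not stated, and reads shared with overlapping genes were not assigned.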
